A study of Homo sapiens with 12 samples.

Results

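The Wnt/beta-catenin pathway and MYC were read as 36 genes, from the secreted inhibitors and receptors of Wnt ligands to the TCF/LEF factors and their targets, in the HCT116 human colon cancer cell line. The genes were chosen by name, as genes of the pathway, with earlier results of these data known. Of the 36 genes, 35 had a feature on the array and 1 (ZNRF3) had none that could be named, among 17185 named genes in all. A single member, AXIN1, had 2 features, of which the brighter was used and the other is given beside it. RNA was measured on 12 one-colour NimbleGen arrays, 3 in each of 4 groups. The groups were HCT116 p53-/- cells with INZ, HCT116 p53-/- cells with DMSO, HCT116 p53+/+ cells with INZ and HCT116 p53+/+ cells with DMSO. INZ (inauhzin, a small molecule that activates p53) was given at 4 μM, and cells were harvested after 18 hours. DMSO is the solvent in which INZ is given. The 3 arrays of each group are labelled as biological replicates, without a statement whether the cultures were grown on separate days, so p-values measure only the spread between these arrays. Each genotype was 1 cell line, so a difference between genotypes cannot be told apart from other differences between the lines.

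In the canonical Wnt pathway, beta-catenin (CTNNB1) is held low by a destruction complex of APC, AXIN and the GSK3 kinases, which marks it for degradation. Wnt ligands bind Frizzled receptors (FZD) and the co-receptors LRP5 and LRP6, Dishevelled (DVL) stops the complex, and beta-catenin then acts with TCF/LEF factors in the nucleus. In the intestine this pathway maintains stem cells and proliferation, with MYC, CCND1 and AXIN2 among the genes it switches on. HCT116 cells are known to carry a mutation of CTNNB1 that stabilises beta-catenin, so the pathway is active in them without a ligand, and the controls share this.

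TCF/LEF factors bind a short motif, searched here as the letters CTTTG followed by 2 places that each hold an A or a T, on both strands, with overlaps allowed. Windows of 250 bases before to 50 bases after gene starts (RefSeq, GRCh38.p14) were matched for 22 of the 35 members. AXIN2, CCND1 and MYC were among the members without a window, so the motif was not searched in them. The motif was in 4 of their 28 windows (14.3%), against 4829 of 35116 windows of all genes (13.8%). The 4 members were DKK1, SP5, TCF7 and TCF7L2. The 3 windows printed here are those of AXIN1, the member with the smallest p for INZ, and of DKK1 and SP5, which hold more than 1 match. The DKK1 window (chr10:52314031-52314330, plus strand) has its matches starting at -95 and -76 from the start of the gene, and the SP5 window (chr2:170715087-170715386, plus strand) at -148, -109 and -84. The AXIN1 window (chr16:352674-352973, minus strand) holds no match. Capitals mark the motif, read 5′ to 3′ on the strand of the gene. A match describes the letters of the window, and binding was not measured in these arrays.
AXIN1: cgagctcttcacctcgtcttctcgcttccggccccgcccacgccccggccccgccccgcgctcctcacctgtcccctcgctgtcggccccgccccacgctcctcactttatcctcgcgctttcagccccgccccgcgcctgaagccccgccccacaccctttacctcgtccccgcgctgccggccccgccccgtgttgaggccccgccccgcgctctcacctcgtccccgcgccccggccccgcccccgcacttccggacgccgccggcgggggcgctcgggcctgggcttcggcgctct
DKK1: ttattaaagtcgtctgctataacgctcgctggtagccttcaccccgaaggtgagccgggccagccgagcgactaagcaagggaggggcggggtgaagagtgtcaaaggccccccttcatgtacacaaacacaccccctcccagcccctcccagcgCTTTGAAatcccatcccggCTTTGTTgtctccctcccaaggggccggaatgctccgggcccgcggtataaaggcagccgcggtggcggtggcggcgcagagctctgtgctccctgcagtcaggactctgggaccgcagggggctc
SP5: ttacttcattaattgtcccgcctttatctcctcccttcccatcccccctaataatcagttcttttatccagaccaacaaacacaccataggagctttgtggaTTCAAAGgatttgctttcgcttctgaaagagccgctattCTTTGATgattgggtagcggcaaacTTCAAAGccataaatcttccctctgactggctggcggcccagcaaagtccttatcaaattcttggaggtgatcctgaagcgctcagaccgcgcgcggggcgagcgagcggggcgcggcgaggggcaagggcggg

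The values are RMA intensities, a background-corrected brightness normalised between arrays, given here on the log2 scale. They depend on the probes of a feature as well as on the RNA, so levels are compared between groups and not between genes. The median intensity per array lay between 87.1 and 93.9. A feature below the median feature of the array (mean log2 intensity 6.41) is called dim, which applied to 9 of the 35 members: DKK4, FZD3, FZD5, FZD7, LGR4, LGR5, APC, LEF1 and ASCL2. CASP4, singled out after its values were seen, separated the genotypes in all 12 arrays, at 5.19 to 5.68 in p53-/- arrays and 9.40 to 10.20 in p53+/+ arrays. The array labelled p53+/+ DMSO replicate 1 and p53+/+ INZ replicate 3 stood apart from the others of their groups, with lower quartiles of intensity at 49.5 and 44.2. The lower quartile was 44.2 to 45.1 in p53-/- INZ arrays and 45.9 to 47.6 in the others. Over all features, the highest correlation of p53+/+ INZ replicate 3 with another array was 0.9715. Replicates 1 and 2 of its group reached at most 0.9677 with any array, so its closest array was in another group. For the array labelled p53+/+ DMSO replicate 1 the highest correlation was 0.9171. Of the 10 markers of colon epithelium, 8 were not dim, and their summed intensity was 66987 to 80428 in p53-/- INZ, 72781 to 79211 in p53-/- DMSO, 78840 to 90010 in p53+/+ INZ and 73873 to 81864 in p53+/+ DMSO arrays. Of 16 markers of leukocytes, endothelium, fibroblasts and other cell types, CD68, COL1A1 and ACTA2 were not dim, and the summed intensity was 1794 to 1929 in p53-/- INZ, 1431 to 2543 in p53-/- DMSO, 2677 to 2898 in p53+/+ INZ and 1988 to 2555 in p53+/+ DMSO arrays.

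To ask how INZ changed the pathway in cells without p53, p53-/- INZ arrays were compared with p53-/- DMSO arrays. AXIN1, a scaffold of the destruction complex, and CCND1, which encodes cyclin D1, fell. AXIN1 was 3.49-fold lower with INZ (95% interval 2.23 to 5.47) and CCND1 2.39-fold lower (1.58 to 3.6). These were 2 of the 35 members (5.71%) with an adjusted p under 0.05 in limma (Benjamini-Hochberg over 45033 features). Of all features, 0.997% were called lower and 0.482% higher in this comparison, and no member was called higher. At an unadjusted p under 0.05 there were 7 members, against 13.6% of all features. In bulk RNA, fewer cells of a type and less RNA per cell cannot be told apart.

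AXIN1 had log2 intensities of 9.78, 9.04 and 8.99 in p53-/- INZ arrays and of 11.29, 10.89 and 11.04 in p53-/- DMSO arrays. All arrays with INZ lay below all arrays with DMSO. The log2 change was -1.80 (95% interval -2.45 to -1.15, adjusted p = 0.00781 in limma). The second AXIN1 feature had 8.96, 7.35 and 8.03 in p53-/- INZ arrays and 10.32, 10.28 and 9.83 in p53-/- DMSO arrays. It was also lower without overlap, with a log2 change of -2.03 (-3 to -1.06, adjusted p = 0.0398 in limma). AXIN1 no longer passed without p53-/- DMSO replicate 1 (adjusted p = 0.0506) or p53-/- INZ replicate 3 (0.0563), with log2 changes of -1.69 and -1.66. Over all alternatives its adjusted p ranged from 0.00191 to 0.0563.

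CCND1, the partner of the kinases that drive cells into S phase, was measured at 11.50, 11.51 and 11.09 in p53-/- INZ arrays and at 12.49, 12.63 and 12.75 in p53-/- DMSO arrays. The groups lay apart by more than their spread, with means of 11.37 ± 0.24 with INZ and 12.62 ± 0.13 with DMSO (SD, n = 3 each). The log2 change was -1.26 (-1.85 to -0.66, adjusted p = 0.038 in limma). The call for CCND1 was lost without any 1 of the 6 p53-/- arrays, at adjusted p of 0.0925 to 0.186.

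AXIN2, the second axin and a direct target of the pathway that feeds back on it, was higher in every INZ array of p53-/- cells, at 8.33, 8.61 and 8.63 with INZ against 7.37, 7.40 and 7.87 with DMSO. Its log2 change of 0.97 (0.24 to 1.71) did not pass (adjusted p = 0.208 in limma). It passed with only these 6 arrays in the fit (0.0489) and with array weights (0.0458). AXIN1 and AXIN2, which share their role in the complex, thus had changes of opposite sign in these cells, with the call for AXIN1 alone.

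MYC, the transcription factor of growth and proliferation, had log2 intensities of 12.79, 12.14 and 12.10 in p53-/- INZ arrays and of 12.80, 12.61 and 12.69 in p53-/- DMSO arrays. These ranges overlapped, and the log2 change of -0.36 did not pass (-1.16 to 0.45, adjusted p = 0.744 in limma). CTNNB1 had 12.03, 12.30 and 11.67 in p53-/- INZ arrays against 11.74, 11.38 and 11.95 in p53-/- DMSO arrays. The groups overlapped too, with a log2 change of 0.31 (-0.52 to 1.14, adjusted p = 0.788). For both genes the interval spans changes in either direction and does not show that the level stayed the same.

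**Figure D1:**
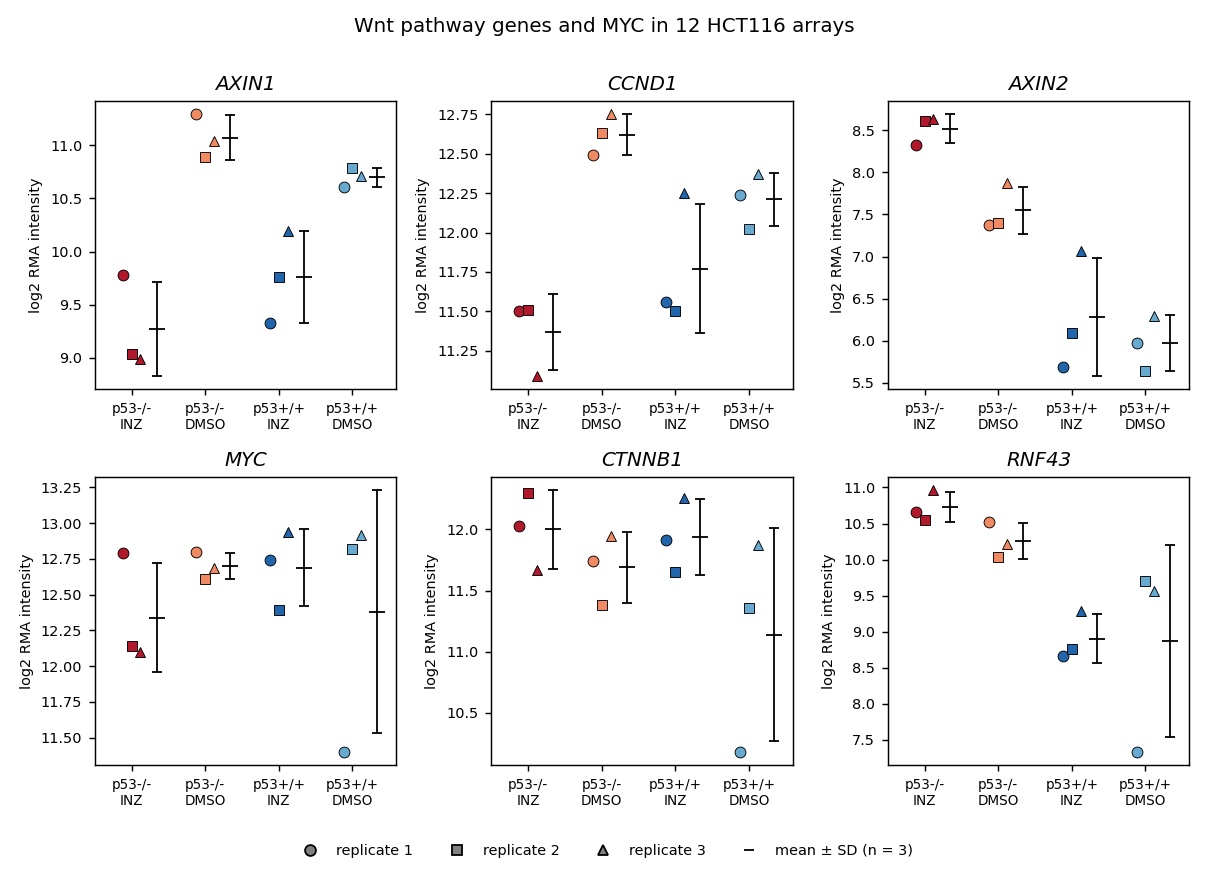
Log2 RMA intensity of AXIN1, CCND1, AXIN2, MYC, CTNNB1 and RNF43 (vertical axes) in the 12 arrays, by group; points are arrays and the bar beside them is the mean with its SD (n = 3). AXIN1 and CCND1 sit lower in p53-/- INZ than in p53-/- DMSO arrays, the AXIN2 values of all 6 p53-/- arrays (7.37 to 8.63) lie above those of all 6 p53+/+ arrays (5.64 to 7.06), and the array labelled p53+/+ DMSO replicate 1 is low for MYC, CTNNB1 and RNF43.

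Outside the cell, the pathway is restrained by DKK1, which blocks LRP5 and LRP6, and by NOTUM, an enzyme that inactivates Wnt ligands. DKK1 was at 12.70, 13.11 and 12.24 in p53-/- INZ arrays and at 13.56, 13.14 and 13.71 in p53-/- DMSO arrays. INZ arrays were lower without overlap, but the log2 change of -0.79 (-1.5 to -0.08) did not pass (adjusted p = 0.311 in limma). NOTUM, singled out after its values were seen, was at 9.05, 9.03 and 9.06 with INZ and at 9.55, 9.91 and 9.26 with DMSO (adjusted p = 0.415). AXIN1, CCND1, DKK1 and NOTUM were the 4 members (11.4%) that were lower without overlap, against 12.5% of all features.

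There were 9 members (25.7%) that were higher without overlap in p53-/- INZ arrays, against 13.3% of all features. Among features that are not dim these were 8 of 26 members, against 19.4%. The 9 were AXIN2, RNF43, TCF7, TCF7L1, TCF7L2, FZD1, FZD4, NKD1 and APC, and none of them passed. TCF7, which encodes a TCF/LEF factor and is itself a target of the pathway, had 8.29, 8.19 and 8.24 in p53-/- INZ arrays and 6.88, 6.19 and 7.21 in p53-/- DMSO arrays. Its log2 change was 1.48 (0.22 to 2.73, adjusted p = 0.276 in limma). Without both arrays that stand apart, which are p53+/+ arrays and enter this comparison only through the shared spread, TCF7 passed at 0.0238. AXIN1 and CCND1 were then called as well, which makes 1 member higher (2.86%) and 2 lower (5.71%), against 3.2% and 2.4% of all features. The median log2 change was 0.14 over the 35 members and -0.03 over all features. With INZ the lower quartile of intensity was also lower in p53-/- arrays, as given above. With that quartile as a covariate, AXIN1 (-2.06, adjusted p = 0.00828 in limma) and CCND1 (-1.45, adjusted p = 0.0357) were still called. The changes of AXIN2 and TCF7 were then 0.56 and 0.33, that of MYC was -0.85 (adjusted p = 0.403), and those of CTNNB1 and RNF43 turned sign, to -0.20 and -0.36.

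**Figure D2:**
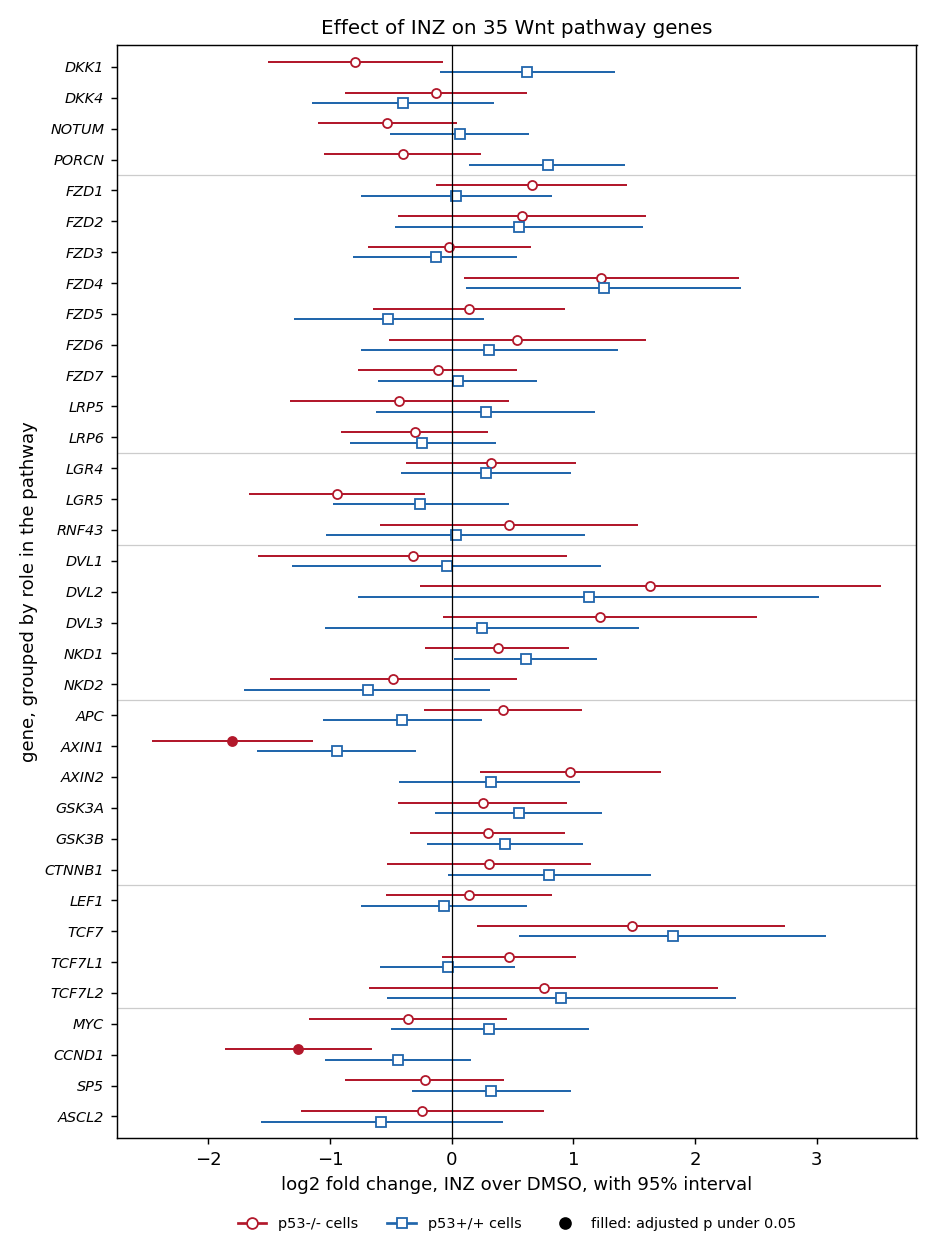
Log2 fold change with INZ over DMSO (horizontal axis) for 35 genes grouped by role (vertical axis), in both genotypes, with 95% intervals of limma; filled symbols have an adjusted p under 0.05. The filled symbols are AXIN1 (-1.80) and CCND1 (-1.26) in p53-/- cells, and both genes also lie below 0 in p53+/+ cells.

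In cells with p53, p53+/+ INZ arrays were compared with p53+/+ DMSO arrays. No member passed in limma, against 0.862% of all features, and 5 members (14.3%) had an unadjusted p under 0.05, against 14.4% of all features. AXIN1 had 9.33, 9.76 and 10.19 in p53+/+ INZ arrays and 10.61, 10.79 and 10.71 in p53+/+ DMSO arrays. The arrays with INZ were again all lower, by 1.92-fold (1.23 to 3.02), with a log2 change of -0.94 and an adjusted p of 0.178. AXIN1 was the 1 member that was lower without overlap, against 8.51% of all features. Its second feature gave -0.66 (-1.63 to 0.31, adjusted p = 0.528), with overlapping groups.

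CCND1 was at 11.56, 11.50 and 12.25 in p53+/+ INZ arrays and at 12.24, 12.02 and 12.37 in p53+/+ DMSO arrays. The highest INZ value was that of replicate 3, and the groups overlapped (log2 change -0.44, -1.03 to 0.15, adjusted p = 0.487 in limma). MYC had 12.74, 12.39 and 12.94 in p53+/+ INZ arrays and 11.40, 12.82 and 12.92 in p53+/+ DMSO arrays. Its log2 change of 0.31 (-0.49 to 1.12, adjusted p = 0.744) rested on the array labelled p53+/+ DMSO replicate 1, and was -0.18 without it. For CTNNB1 the values were 11.91, 11.65 and 12.26 with INZ and 10.18, 11.36 and 11.87 with DMSO, with the same array lowest (log2 change 0.80, -0.02 to 1.63, adjusted p = 0.361), and the change was 0.33 without it. AXIN2 was at 5.69, 6.09 and 7.06 in p53+/+ INZ arrays and at 5.97, 5.64 and 6.29 in p53+/+ DMSO arrays, so the groups overlapped (0.32, adjusted p = 0.713). Without p53+/+ INZ replicate 3 its change was -0.07.

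PORCN, the enzyme that attaches the lipid Wnt ligands need for secretion, was at 8.02, 8.44 and 8.55 in p53+/+ INZ arrays and at 7.51, 7.45 and 7.69 in p53+/+ DMSO arrays. It was higher without overlap by a log2 value of 0.79 (0.15 to 1.42), with an adjusted p of 0.249 in limma. PORCN, NKD1 and LGR4 were the 3 members (8.57%) in that state, against 7.39% of all features. TCF7 had 6.50, 6.81 and 9.23 in p53+/+ INZ arrays and 5.17, 5.36 and 6.56 in p53+/+ DMSO arrays. The value of 9.23 is that of replicate 3, and the groups overlapped. Its log2 change of 1.82 (0.56 to 3.07, adjusted p = 0.181) was 0.69 without both arrays that stand apart. FZD4, a Frizzled receptor chosen after its values were seen, had a like change in both genotypes, 1.23 in p53-/- cells and 1.25 in p53+/+ cells, and passed in p53+/+ cells only without p53+/+ DMSO replicate 3 (1.91, adjusted p = 0.0403). The median log2 change was 0.25 over the members and -0.03 over all features.

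The difference between the effects of INZ, that in p53-/- cells minus that in p53+/+ cells, passed for no member in limma, against 0.0178% of all features. At an unadjusted p under 0.05 there were 2 members (5.71%), DKK1 and PORCN, against 4.71% of all features. DKK1 had 13.54, 13.40 and 13.11 in p53+/+ INZ arrays and 12.11, 13.16 and 12.93 in p53+/+ DMSO arrays, so that its change was 0.62 there (0.30 without the array labelled p53+/+ DMSO replicate 1) and -0.79 in p53-/- cells. The difference was -1.40 (-2.41 to -0.40), with an adjusted p of 0.913. PORCN had 7.78, 6.82 and 7.5 in p53-/- INZ arrays and 7.95, 7.86 and 7.5 in p53-/- DMSO arrays, a change of -0.40, and its difference was -1.19 (-2.09 to -0.29, adjusted p = 0.964). For AXIN1 the difference was -0.86 (-1.78 to 0.06), for CCND1 -0.81 (-1.65 to 0.03) and for MYC -0.67 (-1.80 to 0.47), so these arrays do not show that the genotypes responded differently, nor that they responded alike. Without the array labelled p53+/+ DMSO replicate 1, the difference for MYC was -0.18. The 2 comparisons with INZ against DMSO share no arrays.

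The genotypes were compared with INZ, as p53-/- INZ against p53+/+ INZ arrays. AXIN2 was higher in p53-/- cells by 4.72-fold (2.83 to 7.86), with values of 8.33, 8.61 and 8.63 in p53-/- INZ arrays and of 5.69, 6.09 and 7.06 in p53+/+ INZ arrays. The log2 difference was 2.24 (1.5 to 2.97, adjusted p = 0.00943 in limma). AXIN2 was 1 of 35 members (2.86%) called higher, against 0.0711% of all features, and no member was called lower, against 0.413%. It no longer passed when p53+/+ INZ replicate 1 (adjusted p = 0.0555), p53+/+ INZ replicate 2 (0.0589), p53-/- INZ replicate 2 (0.0608) or p53-/- INZ replicate 3 (0.0694) was left out, at log2 differences of 1.94, 2.14, 2.19 and 2.19. Without both arrays that stand apart, the difference was 2.63 (adjusted p = 0.00108). Of the 16 markers of other cell types, 1 was called in this comparison: ACTA2, a smooth muscle actin, was lower by a log2 value of -3.75 (adjusted p = 0.000425), at 6.79, 5.39 and 6.0 in p53-/- INZ arrays and 9.98, 9.85 and 9.6 in p53+/+ INZ arrays. Its part in the difference of AXIN2 was not tested.

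With DMSO, AXIN2 was at 7.37, 7.40 and 7.87 in p53-/- arrays and at 5.97, 5.64 and 6.29 in p53+/+ arrays. The groups lay apart again, by 2.99-fold (1.8 to 4.98), but the difference of 1.58 did not pass in limma (adjusted p = 0.11). It passed without p53+/+ DMSO replicate 3 (0.0472), without p53+/+ INZ replicate 3 (0.0309) and with array weights (0.0304). With the lower quartile of intensity as a covariate it was 1.21 (adjusted p = 0.381). All 6 p53-/- arrays thus exceeded all 6 p53+/+ arrays for AXIN2, whichever the treatment.

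RNF43, a ubiquitin ligase that removes Frizzled receptors from the cell surface and is another feedback target, ran the same way. It had 10.66, 10.55 and 10.96 in p53-/- INZ arrays and 8.66, 8.76 and 9.29 in p53+/+ INZ arrays, and 10.52, 10.03 and 10.22 in p53-/- DMSO arrays and 7.33, 9.70 and 9.57 in p53+/+ DMSO arrays. No p53-/- array overlapped with a p53+/+ array. The difference was 1.82 with INZ (0.77 to 2.87, adjusted p = 0.163 in limma) and 1.39 with DMSO (0.34 to 2.44, adjusted p = 0.321). With INZ it passed without the array labelled p53+/+ DMSO replicate 1 (adjusted p = 0.00587) and without both arrays that stand apart (2.02, adjusted p = 0.00211), and with DMSO it was 0.62 without both. With the lower quartile of intensity as a covariate, the differences were 1.13 with INZ (adjusted p = 0.424) and 0.64 with DMSO (adjusted p = 0.796).

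SP5, a transcription factor that is a target of beta-catenin, was at 7.07, 7.44 and 7.15 in p53-/- DMSO arrays and at 5.96, 6.68 and 6.44 in p53+/+ DMSO arrays. These groups did not overlap, with a difference of 0.86 (0.21 to 1.5, adjusted p = 0.319 in limma). With INZ they did, at 7.02, 7.07 and 6.90 in p53-/- arrays and 7.01, 6.93 and 6.12 in p53+/+ arrays. PORCN ran the other way with INZ, lower in p53-/- arrays without overlap by -0.97 (-1.60 to -0.33, adjusted p = 0.241), and differed by 0.22 with DMSO. MYC differed by -0.35 with INZ (-1.15 to 0.46, adjusted p = 0.802) and by 0.32 with DMSO (-0.48 to 1.12, adjusted p = 0.761). Without the array labelled p53+/+ DMSO replicate 1 the value with DMSO was -0.17, so its sign rested on that array. The members read as target genes were MYC, CCND1, SP5 and ASCL2. Of these 4, 1 had a difference above 0 with INZ (median -0.32) and 3 with DMSO (median 0.37). The median over all features was -0.02 in each.

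Counted over the members with DMSO, none passed in limma, against 0.211% of all features, and 5 (14.3%) had an unadjusted p under 0.05, against 12% of all features. There were 10 members (28.6%) higher without overlap in p53-/- DMSO arrays, against 8.87% of all features, and 0 lower, against 8.77%. They were AXIN2, SP5, RNF43, NKD1, LGR5, LRP5, CCND1, DVL1, GSK3A and AXIN1. Among features that are not dim they were 9 of 26, against 13.9%. The median difference was 0.39 over the members, with 25 of 35 above 0, and -0.02 over all features. Both values include the array labelled p53+/+ DMSO replicate 1, and the median was not computed without it. Leaving it out lowered the differences of CTNNB1, DKK1 and RNF43 from 0.55, 0.74 and 1.39 to 0.07, 0.43 and 0.62. Those of AXIN2 (1.58 in both) and CCND1 (0.41 and 0.43) did not fall. Without the array labelled p53+/+ DMSO replicate 1, and with p53+/+ INZ replicate 3 left out too, 11 members (31.4%) were higher without overlap against 13.3% of all features, and 1 (2.86%) was lower against 13%. With INZ, 4 members (11.4%; AXIN2, RNF43, APC and FZD4) were higher without overlap, against 7.39% of all features, and 3 (8.57%; PORCN, NOTUM and ASCL2) were lower, against 8.21%. The genes were chosen by pathway, so no test of the list was made. The comparisons of genotypes share their arrays with those of INZ.

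**Figure D3:**
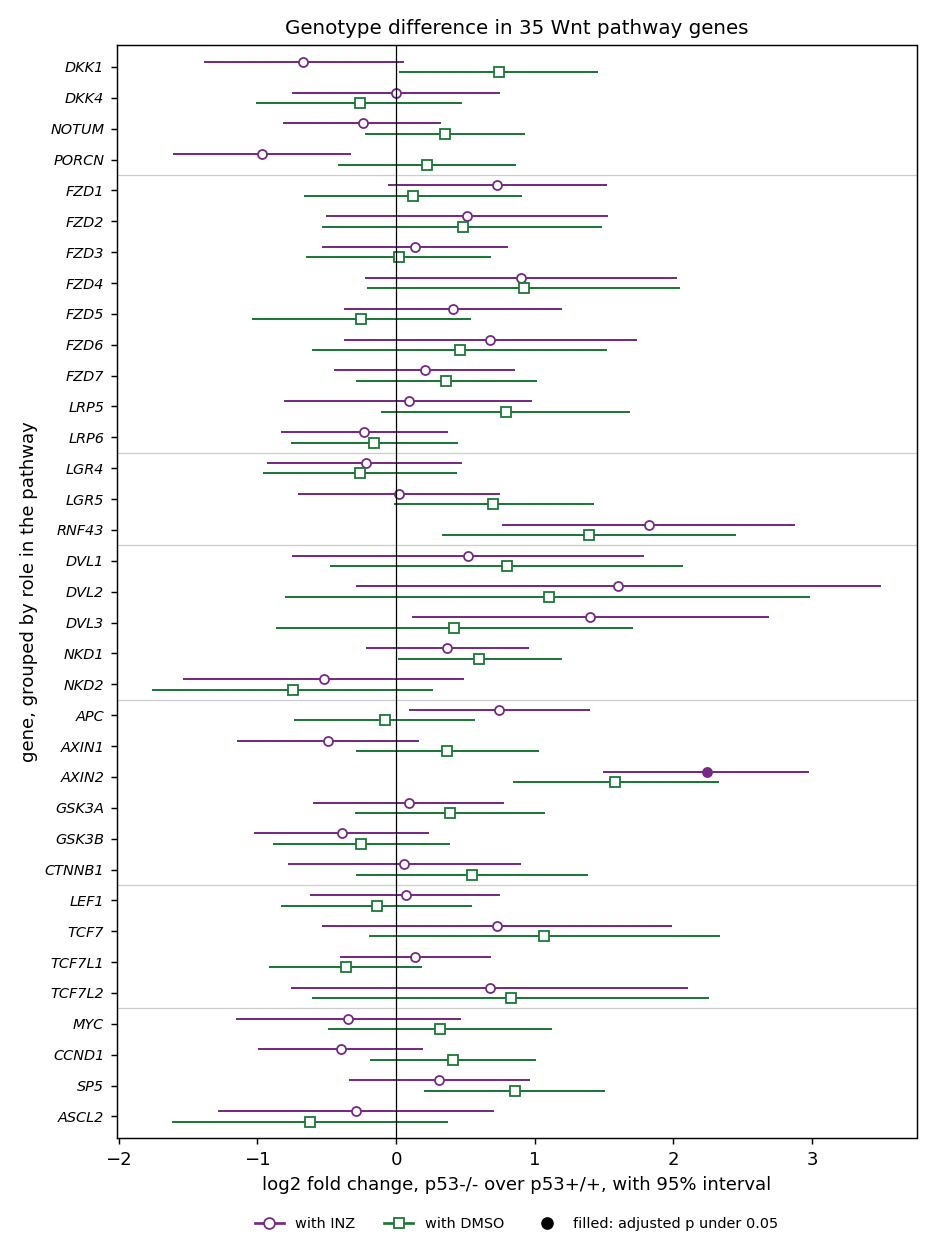
Log2 fold change of p53-/- over p53+/+ cells (horizontal axis) for 35 genes grouped by role (vertical axis), with INZ and with DMSO, with 95% intervals of limma; filled symbols have an adjusted p under 0.05. AXIN2 with INZ (2.24) is the filled symbol, RNF43 lies at 1.82 with INZ and 1.39 with DMSO, and 25 of the 35 genes lie above 0 with DMSO.

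The Dishevelled genes, which relay the signal from Frizzled, and the TCF genes varied widely within groups, and were chosen here for that after their values were seen. DVL2 had 9.07, 8.07 and 10.21 in p53-/- INZ arrays, 8.22, 6.91 and 7.31 in p53-/- DMSO arrays, 6.37, 5.92 and 10.25 in p53+/+ INZ arrays and 5.82, 6.37 and 6.97 in p53+/+ DMSO arrays. The value of 10.25 in p53+/+ INZ replicate 3 lay above every p53-/- array, while the other p53+/+ INZ arrays were low. DVL3 had 7.62, 7.18 and 8.61 in p53-/- INZ arrays and 5.53, 5.95 and 7.74 in p53+/+ INZ arrays. TCF7L2, the main TCF factor of the colon, had 11.51, 11.13 and 11.88 in p53-/- INZ arrays and 10.17, 9.80 and 12.51 in p53+/+ INZ arrays. In each of these genes p53+/+ INZ replicate 3 was the highest of its group.

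These differences did not pass in the unweighted limma fit of all 12 arrays. With INZ they were 1.60 for DVL2 (-0.28 to 3.49, adjusted p = 0.564), 1.40 for DVL3 (0.12 to 2.68, adjusted p = 0.441) and 0.68 for TCF7L2 (-0.75 to 2.10, adjusted p = 0.778). With array weights, DVL2 (2.39, adjusted p = 0.0393) and DVL3 (1.76, adjusted p = 0.0472) passed. Without both arrays that stand apart the differences of DVL2, DVL3 and TCF7L2 were 2.97 (adjusted p = 0.00683), 2.06 (0.0277) and 1.52 (0.0095). In that setting 7 members (20.0%) were called higher in p53-/- INZ arrays, against 5.83% of all features. They were AXIN2, RNF43, TCF7, TCF7L2, DVL1, DVL2 and DVL3, and they were measured against the remaining p53+/+ INZ arrays, replicates 1 and 2. The lower quartiles of those arrays were 47.1 and 47.0, above the 44.2 to 45.1 of p53-/- INZ arrays. The part of that in the 7 calls was not tested. With the quartile as a covariate over all 12 arrays, AXIN2 was the 1 member called (1.89, adjusted p = 0.0256), and TCF7 was at -0.23.

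**Figure D4:**
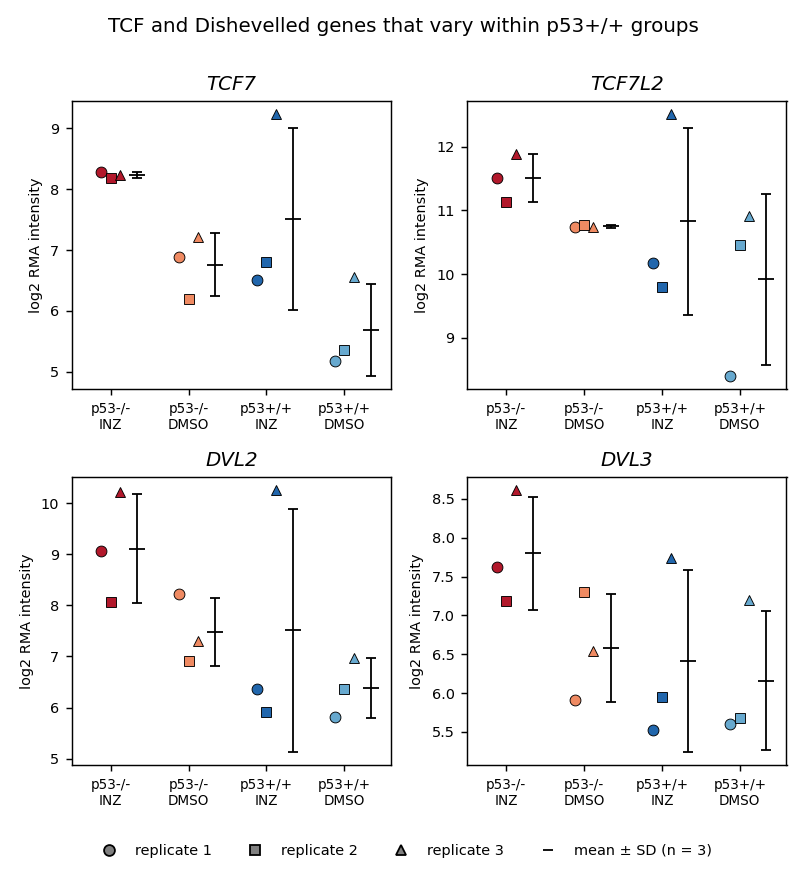
Log2 RMA intensity (vertical axes) of TCF7, TCF7L2, DVL2 and DVL3 in the 12 arrays, by group; points are arrays and the bar beside them is the mean with its SD (n = 3). In p53+/+ INZ arrays the highest point is replicate 3 for each gene (9.23, 12.51, 10.25 and 7.74), above the other 2 arrays of its group by more than 1 log2 unit.

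The remaining members gave no call in the 5 comparisons in the unweighted fit of all 12 arrays. LGR5, the R-spondin receptor that marks intestinal stem cells, was dim, at 4.83, 4.91 and 5.88 in p53-/- INZ arrays and 5.78, 6.14 and 6.54 in p53-/- DMSO arrays. Its change of -0.94 (-1.66 to -0.23) did not pass (adjusted p = 0.212 in limma), but passed with array weights (-1.03, adjusted p = 0.0375). NKD1, which binds Dishevelled and is a feedback target, was higher without overlap with INZ in both genotypes (0.38 in p53-/- and 0.61 in p53+/+ cells), and with DMSO in p53-/- over p53+/+ cells (0.60), with adjusted p of 0.597, 0.327 and 0.403. For the kinases the changes with INZ were 0.26 and 0.55 for GSK3A, and 0.30 and 0.44 for GSK3B, in p53-/- and p53+/+ cells. The co-receptor LRP6 changed by -0.30 and -0.24, and LRP5 by -0.43 and 0.28. LEF1, a TCF/LEF factor that is low in normal colon, was dim, between 4.94 and 5.97 over all arrays. The intestinal stem cell factor ASCL2 was dim too by its mean, though p53+/+ DMSO replicate 2 was at 7.25.

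Further genes of the pathway and of MYC were read from 8 lists of 189 genes, of which 185 had a feature and 121 were not dim. With INZ, 0 of the 185 passed in p53-/- cells, against 1.48% of all features. In p53+/+ cells 1 of the 185 passed, against 0.862%. At an unadjusted p under 0.05 there were 20 in p53-/- cells (10.8%, against 13.6% of all features) and 25 in p53+/+ cells (13.5%, against 14.4%). The difference of the effects passed for 0, against 0.0178% of all features, with 6 at an unadjusted p under 0.05 (3.24%, against 4.71%). Between genotypes 2 of the 185 passed with INZ and 1 with DMSO, all higher in p53-/- cells. Of all features, 0.484% and 0.211% passed in either direction. At an unadjusted p under 0.05 there were 18 (9.73%, against 10.3%) and 26 (14.1%, against 12%). CCN1, a matricellular protein and a target of beta-catenin and of other pathways, was at 9.63, 10.13 and 10.17 in p53+/+ INZ arrays and at 8.17, 8.27 and 8.56 in p53+/+ DMSO arrays. It rose 3.13-fold with INZ in p53+/+ cells (log2 change 1.64, 1.03 to 2.26, adjusted p = 0.0195 in limma). In p53-/- cells its change was 0.88 (adjusted p = 0.165).

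BMP4, a ligand of the BMP pathway, was at 12.18, 12.24 and 12.12 in p53-/- INZ arrays and at 10.19, 10.51 and 10.72 in p53+/+ INZ arrays, and at 12.17, 11.76 and 12.04 in p53-/- DMSO arrays and 9.50, 10.32 and 10.71 in p53+/+ DMSO arrays. It was higher in p53-/- cells by 3.26-fold with INZ (adjusted p = 0.0269 in limma) and 3.51-fold with DMSO (0.0313). BMP4 was read in the list of other beta-catenin target genes, of which 29 were measured. Of these, 9 had a difference above 0 with INZ (median -0.12) and 17 with DMSO (median 0.05), beside -0.02 over all features in each. The Wnt ligand WNT16, a dim feature (mean log2 intensity 6.22), was at 6.99, 7.44 and 7.39 in p53-/- INZ arrays and at 5.30, 6.03 and 5.57 in p53+/+ INZ arrays. It was 3.12-fold higher in p53-/- cells with INZ (adjusted p = 0.0235), and differed by 1.22 on the log2 scale with DMSO (adjusted p = 0.15).

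None of the 32 MYC target genes passed in limma in any comparison. Their median change with INZ was -0.09 in p53-/- cells and -0.06 in p53+/+ cells, beside -0.03 over all features in each. An unadjusted p under 0.05 was found for 4 in p53-/- cells (12.5%, against 13.6% of all features) and 6 in p53+/+ cells (18.8%, against 14.4%). Between genotypes the medians were 0.32 with INZ and 0.20 with DMSO, beside -0.02 over all features in each, with 5 genes (15.6%, against 10.3%) and 6 genes (18.8%, against 12%) at an unadjusted p under 0.05. Of the 32 genes, 30 were not dim, and no median over the features that are not dim was computed to set beside theirs. The 21 measured genes of the MYC network, such as its partner MAX and the MXD repressors, gave no call either. Their medians for INZ were 0.10 in p53-/- cells and 0.31 in p53+/+ cells, beside -0.03 over all features in each. An unadjusted p under 0.05 was found for 1 in p53-/- cells (4.76%, against 13.6%) and 5 in p53+/+ cells (23.8%, against 14.4%). In the list of extracellular modulators 6 of 20 genes were not dim, and in that of the Wnt ligands and their secretion 9 of 20. By the definition of dim, 22517 of all 45033 features were not dim.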

How the data were processed

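RNA of 12 samples was hybridised to one-colour NimbleGen arrays, and the authors deposited 1 table of RMA intensities on a linear scale (16.2 to 61942). The build, the test of the study and the settings of RMA are not stated in the labels or methods. The deposited intensities were log2-transformed without a pseudocount. Of 45033 features, 18866 were named, 18188 from the platform's gene table and 678 by RefSeq accession. Each feature was tested in limma 3.58.1 (R 4.3.3) with 1 mean per group over 12 arrays, no block and no trend, and p-values were adjusted by Benjamini-Hochberg over all features, with 0.05 as the threshold. The pipeline was tested on simulated data. The members, lists and several alternatives were chosen with earlier results of these data known, and support for a pattern they show is not independent. Values of each array are given for MYC, CCND1, CTNNB1 and AXIN2, for members past the threshold, and for the 3 members with the smallest p in each comparison; others named with them were chosen after their values were seen. Of the lists, members past the threshold are named. Promoter sequences are from RefSeq (GRCh38.p14). Alternatives were other normalizations, filters, pseudocounts and fits, leaving out arrays, and the replicate block. Figures were drawn with matplotlib 3.10.9. A further check of the genotype labels is not reported here.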

Additional observations from a re-analysis of the deposited data

How the results depend on the processing

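The count of members past the threshold moved with the arrays and the fit. For INZ in p53-/- cells it was 2, and 0 to 2 when each array was left out in turn, 4 with only the 6 arrays compared and 5 with array weights. The share of all features called moved too, from 1.48% in the unweighted fit of all 12 arrays to 6.01% and 6.65% in the last 2 settings. With an array left out it was 0.509% to 2.92%. For INZ in p53+/+ cells it was 0, and 0 to 1 with an array left out (FZD4, without p53+/+ DMSO replicate 3). Without that array 2.63% of all features were called, against 0.862% with it. For the difference of the effects it was 0 in all 22 alternatives. For p53-/- against p53+/+ cells with INZ it was 1, and 0 to 2 with an array left out, 2 with only the 6 arrays compared, 4 with array weights and 7 without both arrays that stand apart. The shares of all features in these settings were 0.484%, 0.131% to 3.67%, 0.286%, 5.48% and 9.54%, in the same order. With DMSO it was 0, and 0 to 1 with an array left out and 1 with array weights, beside 0.211%, 0.0378% to 1.17% and 0.422% of all features. The change of MYC with INZ in p53+/+ cells, 0.31, ranged up to 0.58 (without p53+/+ DMSO replicate 3) and turned sign without the array labelled p53+/+ DMSO replicate 1 (-0.18), without both arrays that stand apart (-0.30), with array weights (-0.05) and with the lower quartile as a covariate (-0.22), and passed in none. Of 388 alternative values of 17 named gene results, 363 kept their direction and side of the threshold, 12 lost the call, 9 gained it and 4 were these reversals. Most of the 17 were not called to begin with and had no call to lose. With INZ in p53-/- cells, AXIN1 lost its call in 2 of 23 alternatives and CCND1 in 6 of 23. Between genotypes with INZ, AXIN2 lost its call in 4 of 23. In a comparison of 2 groups, leaving out an array of another group cannot change the log2 value. The count of 363 is therefore no measure of stability. The cause of the moves was not tested. Fewer arrays also leave fewer degrees of freedom, and the part of that in these moves was not tested either.

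With the replicate number as a block, the counts of members called were 2, 0, 0, 0 and 1 in the 5 comparisons, as without it, and no call of a member changed. The labels do not state whether the numbers pair the arrays. Over 18 pairs of arrays with the same number the deviations from the group means correlated at -0.189 to 0.332 (median 0.0105). Over 36 pairs with other numbers they correlated at -0.359 to 0.281 (median -0.018). These ranges overlap and cannot decide whether the arrays were paired. Depth is not defined for arrays, and 3 arrays per group limit the precision. The table has no detection calls, and 9 members were dim.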
